A study of Mus musculus with 18 samples.

Results

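The genes described here are the epidermal growth factor (EGF) receptor gene Egfr, 5 genes for EGF family ligands (Hbegf, Ereg, Areg, Tgfa and Nrg1) and the receptor inhibitor gene Errfi1. They were chosen by name, with earlier results of these data known, as 7 of the 21937 genes in the deposited table. Of the 7, 5 (Hbegf, Ereg, Nrg1, Egfr and Errfi1) passed the filter on low values that left 12393 genes for testing. RNA sequencing was done on NIH3T3 cells, an established line of mouse embryonic fibroblasts used widely to study the circadian clock in culture. All cells had first spent 2 h in dexamethasone at 100 nM, which as a glucocorticoid receptor agonist brings the clocks of cultured cells into a shared phase, and 0 h is the change back to normal medium. Cells were then taken every 4 h until 32 h, which gives 9 times with 2 libraries apiece (18 libraries). No untreated library is in the table, so every value comes from cells that had been given dexamethasone, and the 0 h libraries are the earliest.

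EGF family ligands are made as membrane-bound precursors, which proteases of the ADAM family cut to release the soluble factor. A ligand brings 2 receptors of the ErbB family together, their kinase domains become active, and the signal runs through RAS, RAF and MEK to the kinase ERK. ERK switches on early genes, among them genes for ligands and for proteins that dampen the pathway. ERRFI1, also called MIG6, binds the EGF receptor's kinase domain and blocks it, and in rat liver its transcript is known to be raised by glucocorticoids.

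The libraries held 25.4 to 38.9 M reads, and all values below are the authors' normalized read counts (reads divided by 1 factor per library). The fibroblast marker genes were present throughout: all 8 listed were tested and their summed level was 744014 to 818334 normalized reads at 0 h, 644017 to 666888 at 4 h and 611338 to 642596 at 32 h. Of 6 epithelial markers 3 were tested, and the sum of all 6 was 901 to 1196 normalized reads at 0 h, 1007 to 1054 at 4 h and 215 to 244 at 32 h. Most of it at 0 h was Krt8, with 1079 and 791 normalized reads. Epcam was at 0 in 14 of 18 libraries, Cdh1 did not exceed 3.58 normalized reads, and Krt8, a keratin, fell by 2.63 on the log2 scale at 32 h against 0 h (limma adjusted p = 5.05e-08). Ptprc, the pan-leukocyte marker, reached at most 4.87 normalized reads and the endothelial Kdr was at 0 in all 18. The sum of 3 leukocyte markers was 249 to 272 normalized reads at 32 h, against 159 to 209 at 0 h, and that of 3 endothelial markers was 34.4 to 60.2 at 32 h, against 56.3 to 66.8 at 0 h. The part of these markers in the results below was not tested. The deposited scaling leaves the median gene at 0.01 on the log2 scale at 32 h against 0 h. Scaling to equal totals moves it to 0.22, and the share of called genes that were higher goes to 81.0%, against 50.1% (61.4% against 51.1% at 4 h). Changes given here are relative to the deposited scaling.

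Of the 5 tested genes, 3 differed among the 9 times, by limma's moderated F on log2(value + 1) with Benjamini-Hochberg adjustment over all 12393 genes: Hbegf (adjusted p = 7.94e-09), Ereg (5.64e-08) and Errfi1 (1.87e-08). Over all genes tested, 52% passed. At each time from 4 h to 32 h the same 3 genes were lower than at 0 h. Of all genes tested, 10.5% were called lower at 4 h, and at the 7 times from 8 h to 32 h the share was, in order, 17.1%, 18.2%, 17.8%, 19%, 18.6%, 20% and 20.4%. In either direction 2664 genes were called at 4 h, which became 4662 with the replicate number as a block in the fit, 972 without replicate 2 of 0 h and 1459 without replicate 1 of 4 h. Nrg1 (adjusted p = 0.151) and Egfr (adjusted p = 0.551) did not pass. Areg and Tgfa had too few reads to test. In RNA from whole cultures, fewer cells making a transcript and less transcript per cell cannot be told apart. The labels do not say whether the 2 libraries of a time are separate cultures, so the p-values measure only the spread between these libraries.

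Hbegf encodes heparin-binding EGF-like growth factor, a ligand of the EGF receptor and ErbB4. In replicate 1 and replicate 2 it had 9103 and 8716 normalized reads at 0 h, 4417 and 3819 at 4 h, 2223 and 1783 at 8 h, 1900.1 and 1556 at 12 h, 1417 and 1229.55 at 16 h, 1165 and 976 at 20 h, 1020.0 and 881 at 24 h, 919 and 722 at 28 h, and 924 and 726 at 32 h. Both libraries of 0 h lay above all 16 later ones, each replicate had its lowest value at 28 h, and replicate 1 was above replicate 2 at every time. The mean at 4 h was 4118 ± 423 normalized reads, against 8909 ± 274 at 0 h (SD, n = 2 each), so that it fell by 1.12 ± 0.156 (SE) on the log2 scale, or 2.17-fold (limma adjusted p = 0.000259). By 32 h it was 825 ± 140.1, against 8909 ± 274 at 0 h, which is 10.9-fold lower (adjusted p = 1.49e-09). As a share of its own 0 h library, Hbegf stood at 10.2% and 8.33% at 32 h.

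Ereg encodes epiregulin, a ligand of the same receptors. Its libraries (replicate 1, then replicate 2) held 12135 and 11414 normalized reads at 0 h, 5924 and 6071 at 4 h, 2832 and 2681 at 8 h, 2664 and 2574 at 12 h, 2303 and 2113 at 16 h, 2100.04 and 1591 at 20 h, 2270.5 and 1486 at 24 h, 1774 and 1363 at 28 h, and 1602 and 1494 at 32 h. All libraries of 0 h and 4 h lay above all later ones, and the 2 libraries stood furthest apart at 24 h. The mean at 4 h was 5997 ± 104 normalized reads, against 11775 ± 510.3 at 0 h (SD, n = 2 each), so that it fell by 0.97 ± 0.166 on the log2 scale, or 1.96-fold (adjusted p = 0.00112). At 32 h it was 1548 ± 76.8, against 11775 ± 510.3 at 0 h, 7.60-fold lower (adjusted p = 1.16e-08). Ereg stood at 13.2% and 13.1% of its own 0 h library at 32 h.

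Errfi1 had the most reads of the 7 genes in every library. In replicate 1 and replicate 2 it had 34713 and 43853 normalized reads at 0 h, 7827 and 8992 at 4 h, 5309.9 and 5871 at 8 h, 5021 and 6181 at 12 h, 5209 and 5865 at 16 h, 5179 and 5532 at 20 h, 5103 and 5726 at 24 h, 5798 and 6964 at 28 h, and 6585 and 7984 at 32 h. Most of the fall came by 4 h: both libraries of 0 h lay far above every later one, and replicate 2 was above replicate 1 at each time. The mean at 4 h was 8409 ± 824 normalized reads, against 39283 ± 6463 at 0 h (SD, n = 2 each), so that it fell by 2.22 ± 0.136 on the log2 scale, or 4.65-fold (adjusted p = 4.96e-07). At 32 h it was 7284 ± 989.5, against 39283 ± 6463 at 0 h, 5.38-fold lower (adjusted p = 1.10e-08). Errfi1 stood at 22.5% and 20.5% of its own 0 h library at 4 h and at 15.3% and 13.4% at 8 h. Whether its fall differs in size from those of the ligands was not tested.

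**Figure D1:**
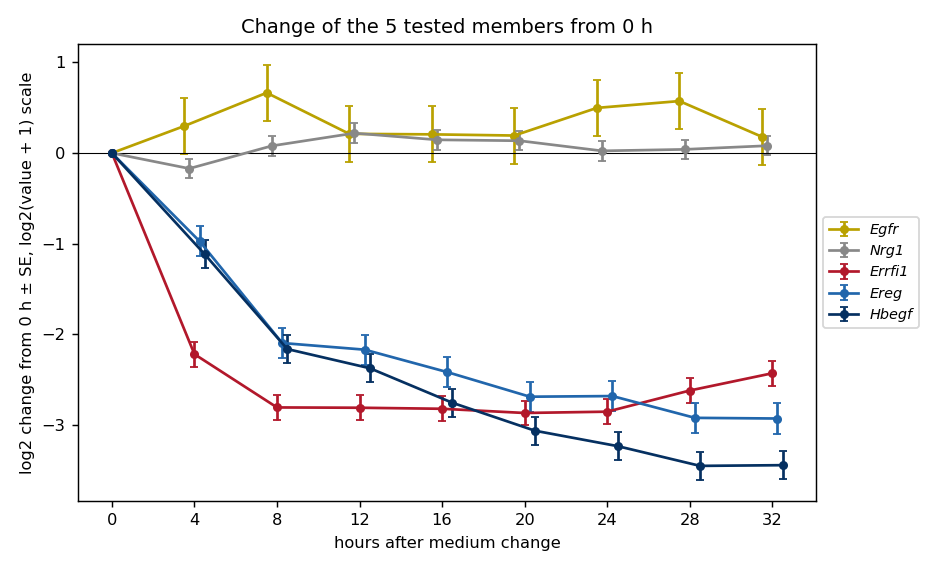
Log2 change from 0 h ± SE of the 5 tested genes against hours after the medium change, on the log2(value + 1) scale, with points of 1 time set slightly apart. Errfi1 has most of its change by 4 h (-2.22), Hbegf goes on down to -3.44 at 32 h, Ereg to -2.93, and Nrg1 and Egfr run between -0.17 and 0.66.

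Promoter sequence was read from RefSeq (GRCm38.p6, the 250 bases before each annotated start), whose table matched Areg, Tgfa, Egfr and Errfi1, with 2 start sites for Errfi1. Those of Errfi1 and Areg are shown because Errfi1 is the inhibitor that fell and Areg is a ligand gene that stayed near 0. Both genes hold the same element, Errfi1 at 1 of its 2 start sites, while Tgfa also stayed near 0 and holds none. Hbegf and Ereg, which also fell, and Nrg1 were not matched. The part of the element in these levels was not tested. Letters searched on both strands were TGANTCA (AP-1, bound by FOS and JUN), TGACGTCA (CRE, the cAMP response element), CACGTG (E-box, bound by CLOCK and BMAL1), CATTCC (TEAD), and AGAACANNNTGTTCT (a full glucocorticoid receptor site) with one arm of it, TGTTCT. Capitals mark matches to these letters other than single arms, and no 2 marked matches overlapped. The sequences run 5′ to 3′ on the plus strand: Errfi1 start site 1 is chr4:150853546-150853795, Errfi1 start site 2 is chr4:150854820-150855069 and Areg is chr5:91139349-91139598.
Errfi1 start site 1: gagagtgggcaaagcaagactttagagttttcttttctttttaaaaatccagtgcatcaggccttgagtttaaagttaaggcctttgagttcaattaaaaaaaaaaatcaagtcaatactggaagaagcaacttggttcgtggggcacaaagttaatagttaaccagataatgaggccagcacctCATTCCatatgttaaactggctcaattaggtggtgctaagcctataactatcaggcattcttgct
Errfi1 start site 2: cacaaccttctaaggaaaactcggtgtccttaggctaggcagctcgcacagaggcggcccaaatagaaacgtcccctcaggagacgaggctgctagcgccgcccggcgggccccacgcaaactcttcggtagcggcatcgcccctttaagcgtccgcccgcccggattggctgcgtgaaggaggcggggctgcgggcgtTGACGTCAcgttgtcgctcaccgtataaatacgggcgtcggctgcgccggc
Areg: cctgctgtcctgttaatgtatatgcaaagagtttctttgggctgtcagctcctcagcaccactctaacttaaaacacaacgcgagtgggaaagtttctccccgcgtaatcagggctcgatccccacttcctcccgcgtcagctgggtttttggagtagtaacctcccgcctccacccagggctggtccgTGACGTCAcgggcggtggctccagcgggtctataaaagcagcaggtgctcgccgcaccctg
At start site 1 of Errfi1 the match is the TEAD letters, ending 59 bases before the start. At start site 2 it is the CRE, ending 43 bases before the start, and in Areg a CRE ends 53 bases before it. The windows of Egfr and Tgfa held none of the marked letters. Over all 32851 promoters of that length in the table, 1.55% held the CRE, 12.6% the TEAD letters, 6.75% AP-1, 6.02% the E-box, 16.1% a single arm of the glucocorticoid receptor site and 0.00913% a full site. A gene-level count does not show which Errfi1 start the cells used.

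Nrg1 encodes neuregulin 1, which binds ErbB3 and ErbB4 rather than the EGF receptor. It had 643 and 674 normalized reads at 0 h, 646 and 529 at 4 h, 717 and 675 at 8 h, 764 and 769 at 12 h, 742 and 715 at 16 h, 729 and 718 at 20 h, 593 and 755 at 24 h, 703 and 652 at 28 h, and 706 and 687 at 32 h. The highest mean was at 12 h and the lowest at 4 h, and the libraries of 24 h spanned most of the range. At 32 h it averaged 696 ± 13.8 normalized reads, against 659 ± 21.99 at 0 h (SD, n = 2 each), a log2 change of 0.08 ± 0.107 (limma adjusted p = 0.581). With equal totals Nrg1 passed the F (adjusted p = 0.00952) and was higher at 32 h than at 0 h by 0.29 on the log2 scale (adjusted p = 0.0361), beside a median gene higher by 0.22. It then also passed at 12 h, 16 h and 20 h when set against 0 h, at 8 h and 28 h when set against 4 h, and in its drift. In the deposited scaling its F passed without replicate 1 of 24 h (adjusted p = 0.0455) or replicate 2 of 24 h (0.0317), and its change at 28 h against 4 h passed without replicate 1 of 4 h (0.0321).

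Egfr was close to the limit of testing, with 10 to 29 reads per library. Its normalized reads in replicate 1 and replicate 2 were 12.6 and 13.7 at 0 h, 17.4 and 15.45 at 4 h, 18.2 and 25.3 at 8 h, 15.2 and 15.6 at 12 h, 18.6 and 12.6 at 16 h, 12.7 and 18.1 at 20 h, 18.1 and 20.0 at 24 h, 25.05 and 16.1 at 28 h, and 13.2 and 17.2 at 32 h. The 2 libraries of 28 h alone covered 16.1 to 25.05 of a full range of 12.6 to 25.3, and no time stood apart. At 4 h the mean was 16.4 ± 1.41 normalized reads, against 13.2 ± 0.771 at 0 h (SD, n = 2 each), a log2 change of 0.30 ± 0.309 (limma adjusted p = 0.529), and at 32 h the change was 0.18 (adjusted p = 0.676). With equal totals it passed at 28 h against 0 h (log2 change 0.77, adjusted p = 0.0472).

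Areg encodes amphiregulin, an EGF receptor ligand, and had 58 reads in all, 1 to 10 per library. Its normalized reads were 0.90 and 1.37 at 0 h, 0.97 and 1.29 at 4 h, 4.55 and 4.60 at 8 h, 0.90 and 0.97 at 12 h, 1.86 and 3.16 at 16 h, 0.91 and 8.59 at 20 h, 5.16 and 4.45 at 24 h, 8.64 and 4.02 at 28 h, and 2.82 and 1.01 at 32 h. At such counts no difference between times can be read. Tgfa, for transforming growth factor alpha, had 1 read in the whole series, in replicate 1 of 0 h, and was at 0 in the other 17 libraries. A count of 0 allows up to 3 reads, or 2.58 to 4.12 normalized reads depending on the library, and covers counting error only.

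Levels between genes were set per kilobase of merged exon (GENCODE M21 basic, GRCm38), since the authors' annotation is not given in the sources used here. On that scale Errfi1 had 2252 ± 306 normalized reads per kilobase at 32 h, against 12143 ± 1998 at 0 h (SD, n = 2 each). Hbegf had 347 ± 59.0 at 32 h, against 3751 ± 115 at 0 h, and Ereg 375 ± 18.6 at 32 h, against 2852 ± 124 at 0 h. At 0 h the order was Errfi1, Hbegf, Ereg and Nrg1 (83.6 ± 2.79). Egfr (1.204 ± 0.0704) and Areg (0.934 ± 0.274, 1 read in each library) were lower, with means ± SD that overlapped. At 32 h Hbegf and Ereg did not differ beyond their spread, nor did Areg (1.58 ± 1.05) and Egfr (1.39 ± 0.260). Among the receptor genes Erbb2, whose protein has no ligand of its own and pairs with the others, had 276 ± 15.1 at 32 h, against 380.05 ± 36.2 at 0 h. Erbb3 had 1.63 ± 0.313 at 32 h, against 1.01 ± 1.11 at 0 h, and Erbb4 had 1 read in all libraries together. Reads per kilobase of Erbb2 were above those of Egfr at both times.

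Between neighbouring times the falls came early. At 8 h against 4 h, 3 of the 5 tested genes fell again, where 6.41% of all genes tested did (1395 genes in either direction, and 3043 with the replicate block). The log2 change was -1.04 for Hbegf (limma adjusted p = 0.000802), -1.12 for Ereg (0.000742) and -0.59 for Errfi1 (0.0128). The Errfi1 call did not hold without replicate 1 of 8 h (adjusted p = 0.0935) or replicate 2 of 4 h (adjusted p = 0.124). In the 6 later steps limma, edgeR and DESeq2 called 0 of the 5. Of all genes tested, 0.5% were called at 12 h against 8 h, 0.00807% at 16 h against 12 h, 0.0565% at 20 h against 16 h, 0.0161% at 28 h against 24 h and 0% at the other 2 steps. Over these steps 1 unadjusted limma p was under 0.05 (Hbegf at 16 h against 12 h, 0.0283). Same-numbered libraries deviated together, and with the replicate number as a block in the fit Hbegf also fell at 16 h against 12 h (adjusted p = 0.00400) and at 20 h against 16 h (adjusted p = 0.0328). With that block 1.28% and 0.339% of all genes tested were called at these 2 steps.

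Levels of the second day were also set against the same hour of the first. Since 4 h and 8 h lie on the fall from 0 h, an equal level there is no return to the start. At 24 h the 3 genes that fell were still lower than at 0 h, as given above. At 28 h against 4 h, 3 of the 5 fell, where 20.7% of all genes tested did: the log2 change was -2.33 for Hbegf (limma adjusted p = 9.44e-08), -1.95 for Ereg (8.00e-07) and -0.40 for Errfi1 (0.0297). The Errfi1 value did not pass with equal totals (adjusted p = 0.174), without a variance trend (0.0558), without replicate 1 of 28 h (0.224) or without replicate 2 of 4 h (0.180). At 32 h against 8 h, 2 of the 5 fell, where 14.1% of all genes tested did: the log2 change was -1.28 for Hbegf (adjusted p = 7.58e-05) and -0.83 for Ereg (adjusted p = 0.00247). Errfi1 had 6585 and 7984 normalized reads at 32 h, against 5309.9 and 5871 at 8 h. That is 0.38 ± 0.136 higher on the log2 scale, where 13.5% of all genes tested were called higher, and did not pass (adjusted p = 0.0536). The libraries of both replicates were higher at 32 h, and the adjusted p ran between 1.02e-05 (replicate block) and 0.371 over the alternatives, passing with equal totals (0.0196), edgeR (0.0483) and DESeq2 (0.0224). It also passed without either library of 0 h, either library of 12 h or replicate 1 of 32 h (0.0393 to 0.0428). In either direction 3422 genes were called at 32 h against 8 h, and 5241 with the replicate block.

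No 24 h rhythm passed for any of the 5 genes, where 0.371% of all genes tested did. The adjusted p of limma's F for a cosine and sine was 0.711 for Hbegf, 0.594 for Ereg, 0.394 for Errfi1, 0.218 for Nrg1 and 0.677 for Egfr. Nrg1 was the 1 gene with an unadjusted p under 0.05 (0.0177), with a fitted peak 1.19-fold above its trough, and edgeR and DESeq2 called 0 of the 5. When a straight trend was fitted together with the rhythm, 2108 of all genes tested (17%) passed, against 46 without it, and still 0 of the 5, with an adjusted p of 0.0634 for Nrg1, 0.0756 for Ereg, 0.111 for Hbegf, 0.165 for Errfi1 and 0.575 for Egfr. The coefficient of time beside the cosine and sine was -2.33 ± 0.203 on the log2 scale per 24 h for Hbegf (adjusted p = 4.86e-08), -1.88 ± 0.198 for Ereg (3.73e-07) and -1.04 ± 0.345 for Errfi1 (0.0158), a downward slope that 27.3% of all genes tested had. For Hbegf and Ereg the fall was not steady. Between 0 h and 8 h their log2 changes were -2.16 and -2.09. Over the longer span from 8 h to 32 h they were smaller, -1.28 for Hbegf and -0.83 for Ereg. Nor does the slope describe a steady fall for Errfi1, which averaged 39283 normalized reads at 0 h, 5591 at 8 h and 7284 at 32 h. For Errfi1 it did not pass without replicate 1 of 0 h (-0.77, adjusted p = 0.0636) or replicate 2 of 0 h (-0.68, adjusted p = 0.0577).

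Hbegf and Ereg followed each other closely over the 18 libraries, with a Pearson r of log2(value + 1) of 0.989, while Errfi1 had an r of 0.786 with Hbegf and 0.816 with Ereg. All such values are a description, since the libraries share their times, their normalization and the steep fall after 0 h. Among the genes most like Hbegf were Ptgs2 (r = 0.994), the inducible cyclooxygenase, Csnk1e (0.991), a kinase of the clock protein PER, Dusp5 (0.990), a phosphatase of ERK, and Ereg. Ptgs2 averaged 9829 normalized reads at 32 h, against 82572 at 0 h. An r does not measure the size of a change: Csnk1e fell less, to 3221 at 32 h, against 6427 at 0 h. The genes most like Ereg were Hbegf, Slc20a1 (0.989), Plau (0.988), Iffo2 (0.987) and Chsy1 (0.987). Plau, the urokinase gene, averaged 4706 normalized reads at 32 h, against 15302 at 0 h, and Iffo2 1194 at 32 h, against 2681 at 0 h.
The genes most like Errfi1 were Hivep3 (r = 0.977), Dnajb4 (0.974), a heat shock cochaperone, Zfp36l2 (0.971), an RNA-binding protein that speeds mRNA decay, Smad1 (0.971), a BMP signal transducer, and Rbfox2 (0.969), a splicing factor. Zfp36l2 averaged 24790.4 normalized reads at 0 h, 9174 at 12 h and 10833 at 32 h, and Rbfox2 20993 at 0 h, 11625 at 12 h and 12850 at 32 h. For Nrg1 and Egfr likeness was lower: the closest were Wdr78 (0.870), Mif4gd (0.856), Naip5 (0.855), Kif27 (0.826) and Orc3 (0.818) for Nrg1, and Reep6 (0.762), Dis3l2 (0.725), Mpg (0.686), 4932416H05Rik (0.656) and Elp2 (0.652) for Egfr.

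The rest of the pathway was described by a list of 56 other ErbB genes, of which 51 were tested. Of these, 40 passed the F over the 9 times, where 52% of all genes tested did. This list and that of the glucocorticoid targets below were chosen with earlier results of these data known. Their counts beside all genes tested are therefore a description only. At 4 h against 0 h 5 rose, 19 fell and 27 did not pass (of all genes tested 11% rose and 10.5% fell), with a median log2 change of -0.21, against -0.0015 for all genes tested. At 32 h against 0 h 5 rose, 31 fell and 15 did not pass (of all genes tested 20.5% rose and 20.4% fell), with a median of -0.46, against 0.01. These shares of all genes tested also stand beside the counts of each role and of the glucocorticoid targets below. With equal totals 81.0% of all called genes were higher at 32 h, against 50.1% as deposited. The 4 h and 32 h comparisons share their 0 h libraries.

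Brakes on the pathway made up 15 tested genes, of which 7 fell and 0 rose at 4 h, and 13 fell and 1 (Socs4) rose at 32 h. With equal totals 10 fell and 2 rose at 32 h. With the replicate block, which called 37.6% of all genes tested at 4 h, 9 fell and 0 rose at 4 h. Dusp6, an ERK phosphatase, averaged 4810.4 ± 71.1 normalized reads at 0 h, 2530.4 ± 56.5 at 4 h and 1549 ± 30.8 at 32 h (SD, n = 2 each). Spry4, a Sprouty inhibitor of RAS signalling, was 1.95-fold lower at 4 h (limma adjusted p = 9.70e-06) and 4.16-fold lower at 32 h (adjusted p = 1.05e-09). Dusp5, which acts on ERK in the nucleus, was 2.22-fold lower at 4 h (adjusted p = 0.000188) and 7.38-fold lower at 32 h (adjusted p = 6.04e-09).

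ERK-driven early genes made up 10 tested genes, of which 6 fell and 1 (Etv5) rose at 4 h, and 9 fell and 0 rose at 32 h, or 6 with equal totals. With the replicate block 7 fell and 2 rose at 4 h. Junb, a subunit of AP-1, averaged 3069.9 ± 818 normalized reads at 0 h, 683 ± 46.1 at 4 h and 622 ± 66.5 at 32 h (SD, n = 2 each). It was 4.42-fold lower at 4 h (limma adjusted p = 3.37e-06). Ier2 was 1.95-fold lower at 4 h (adjusted p = 3.54e-05) and Phlda1 1.46-fold (adjusted p = 0.00264). Of 10 tested glucocorticoid targets 8 fell and 0 rose at 4 h, and 8 fell and 0 rose at 32 h, where 1 rose with equal totals or with the replicate block. With the block all 10 fell at 4 h. Fkbp5, a cochaperone of the glucocorticoid receptor, was 1.96-fold lower at 4 h (adjusted p = 5.47e-07), and Per1, a clock gene with glucocorticoid receptor sites, was 2.17-fold lower (adjusted p = 1.52e-06). Per1 did not keep falling: it averaged 7580 ± 676 normalized reads at 0 h, 2423 ± 113 at 12 h and 4829 ± 294 at 24 h. Mt2, a metallothionein, was 5.67-fold lower at 32 h (adjusted p = 1.57e-07) and had a log2 change of -0.32 at 4 h (adjusted p = 0.238, and 0.0468 with the replicate block).

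**Figure D2:**
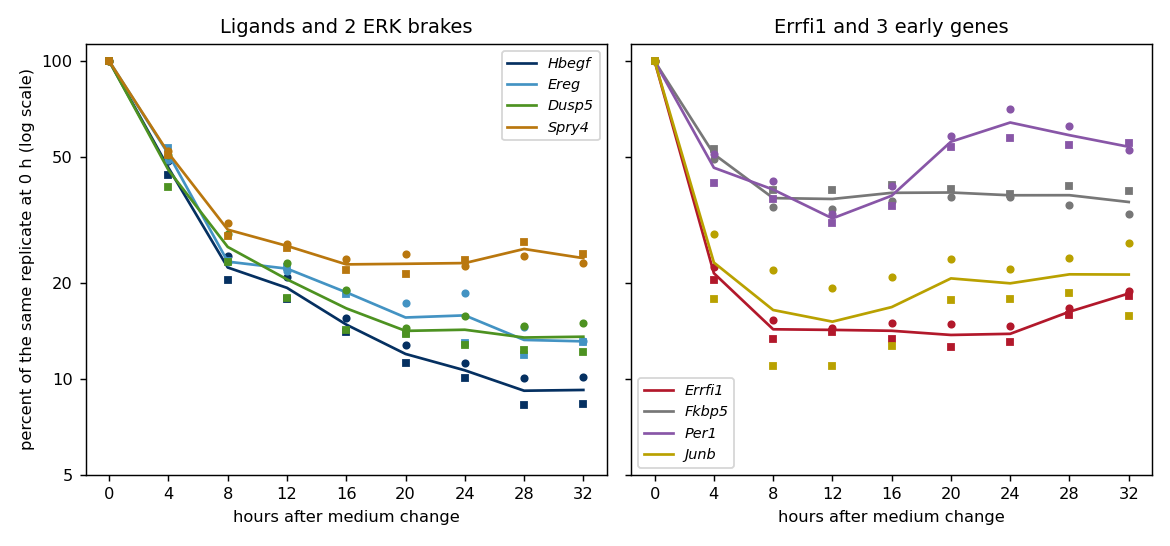
Level as a percent of the same replicate at 0 h (log axis) against hours after the medium change, with circles for replicate 1, squares for replicate 2 and lines for their mean. In the left panel Hbegf, Ereg, Dusp5 and Spry4 are lower at 32 h than at 8 h, with Hbegf at 10.2% and 8.33% at 32 h. Spry4 averaged 328 normalized reads at 16 h and 343 at 32 h. In the right panel Errfi1 is at 22.5% and 20.5% by 4 h, beside Fkbp5, Per1 and Junb.

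Genes upstream of the receptor and in the cascade were mixed. Of 3 other ligand genes tested, 2 rose at 4 h: Btc, for betacellulin, averaged 139 ± 1.90 normalized reads at 4 h, against 58.6 ± 1.37 at 0 h (SD, n = 2 each; 2.35-fold, limma adjusted p = 0.000576), and Egf was 1.73-fold higher (adjusted p = 0.0117). At 32 h Egf was 2.03-fold higher than at 0 h (adjusted p = 0.000817), and Btc averaged 42.9 ± 0.552, against 58.6 ± 1.37 at 0 h (adjusted p = 0.0785). Nrg4 passed neither. Of 5 genes for ligand release 2 fell at 4 h, and at 32 h 1 rose and 2 fell, or 2 rose and 2 fell with equal totals. Adam17, the main protease that releases HB-EGF and epiregulin, was 1.31-fold higher at 32 h (adjusted p = 0.00110), Adam9 was 1.41-fold lower (3.28e-06) and Rhbdf1, an iRhom that carries ADAM17 to the cell surface, was 1.53-fold lower (0.000213). Erbb2 was 1.37-fold lower at 32 h (adjusted p = 0.00436), which did not pass with equal totals.
Of 17 transducers 2 rose and 4 fell at 4 h (of all genes tested 11% and 10.5%), and at 32 h 2 rose and 6 fell (20.5% and 20.4%). With equal totals 5 rose and 3 fell at 32 h, where 81.0% of all called genes were higher. The median was then 0.05, against -0.16 as deposited. With the replicate block 4 rose and 10 fell at 32 h, where 53.6% of all genes tested were called. Map2k1, for the kinase MEK1, was 1.37-fold higher at 4 h (adjusted p = 9.11e-05) and 1.22-fold lower at 32 h (adjusted p = 0.000977). Sos2, an activator of RAS, was 1.56-fold lower at 32 h (adjusted p = 4.02e-06) and the adaptor Gab2 1.86-fold lower (adjusted p = 2.54e-06).

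**Figure D3:**
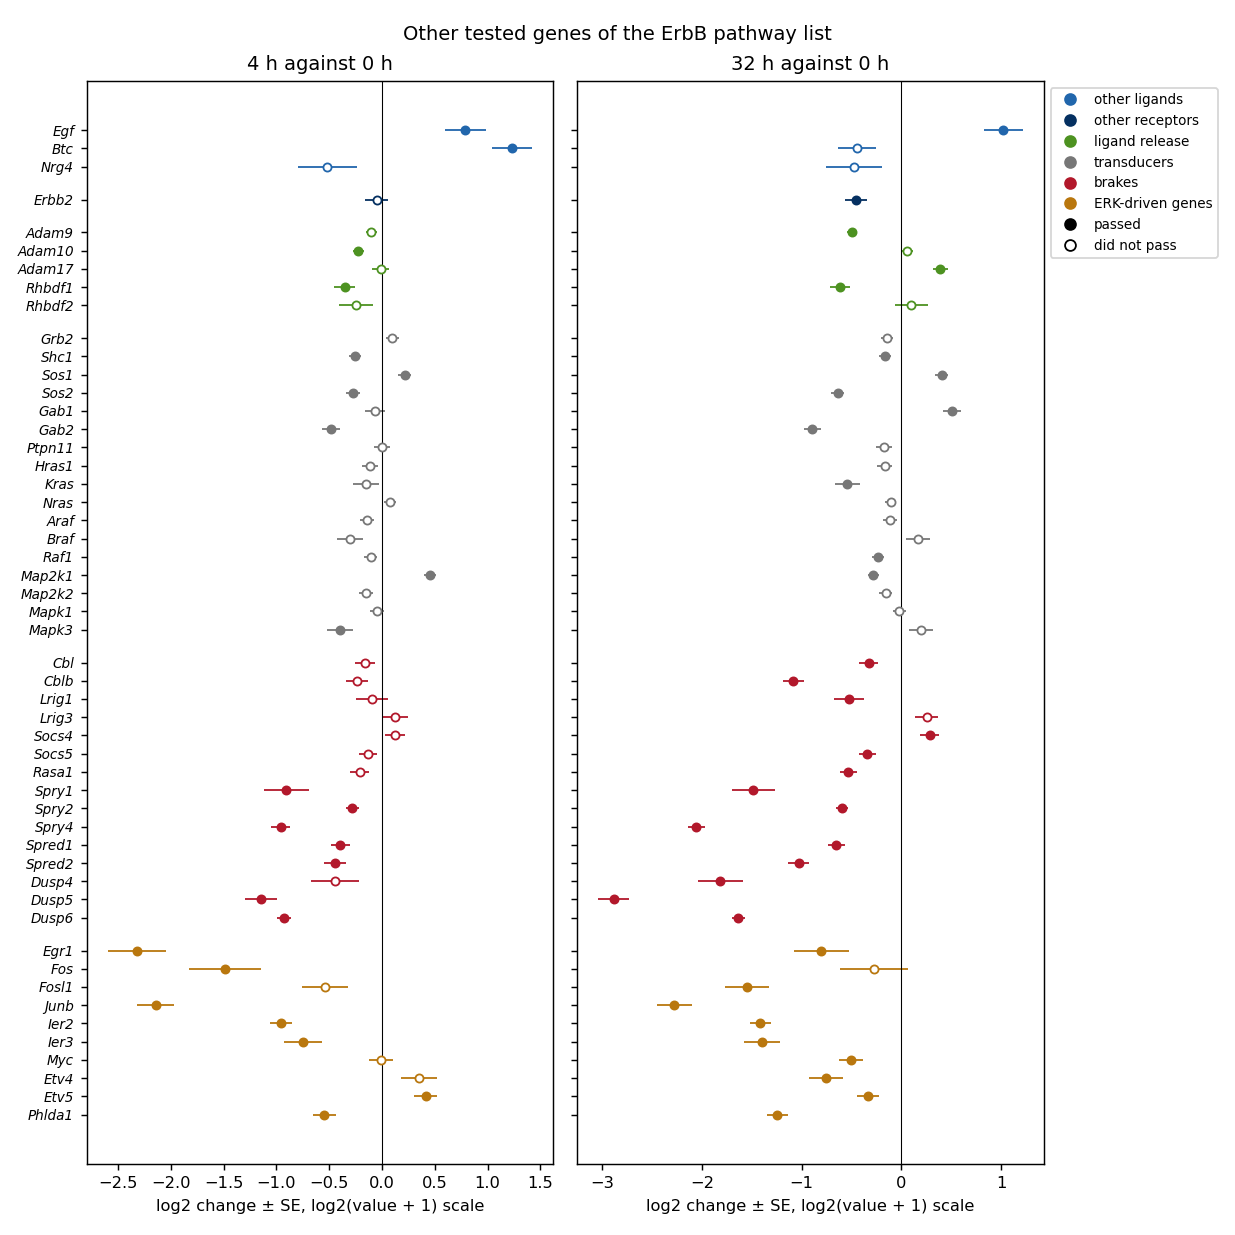
Log2 change ± SE of the 51 other tested ErbB pathway genes, at 4 h against 0 h (left) and 32 h against 0 h (right), coloured by role and filled where the test passed. Brakes and ERK-driven genes lie mostly left of 0, with 13 of 15 brakes lower at 32 h, and transducers lie on both sides.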

How the data were processed

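Values are a signal of the authors: the deposited normalized read counts, reads per gene divided by 1 factor per library, in 18 libraries. Per the submitters' processing notes, TopHat, HTSeq and DESeq were used with build mm9 (versions, roles and annotation not given in the sources used here). Dividing by each column's step gave whole reads within 0.02 for 100% of values; edgeR and DESeq2 on those reads were alternatives.

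Genes averaging 10 normalized reads or more were tested with limma 3.58.1 (R 4.3.3) on log2(value + 1), which understates changes of low genes, with a variance trend, all 18 libraries, 1 coefficient per time and Benjamini-Hochberg at 0.05. edgeR was 4.0.16, DESeq2 1.42.0, Python 3.11.15 and matplotlib 3.10.9. Same-numbered libraries deviated together in 36 of 36 pairs of times (correlation 0.230 to 0.502), so the numbers were taken to pair them. The main fit has no block, so its SEs and p-values leave that pairing out. At 4 h the SE of Errfi1 was 0.136, or 0.0530 with the block, and that of Egfr 0.309, or 0.327 with the block. Members and lists were chosen with earlier results of these data known. Named genes are all 7 members, up to 3 genes of each role with the smallest p of the F, and the 5 genes most correlated with each tested member, of which 1 is not reported here; Erbb3, Erbb4, Socs4 and Etv5 from the list and 5 of the markers were named after their values were seen. Other alternatives were a pseudocount of 0.5 or 4, no filter or a mean of 50, equal totals, no variance trend, periods of 22 h and 26 h, and leaving out each replicate. Scripts were tested on simulated data.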

Additional observations from a re-analysis of the deposited data

How the results depend on the processing

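At 4 h against 0 h, 2664 genes passed in limma as reported, 4662 with the replicate block, and 972 (without replicate 2 of 0 h) to 2720 when each replicate was left out (1459 without replicate 1 of 4 h). For the members, calls between neighbouring times from 8 h on (beside the 3 at 4 h against 0 h) numbered 3, and 5 with the replicate block, or 2 to 3 when each replicate was left out. All 27 alternatives kept Hbegf, Ereg and Errfi1 lower at 4 h and at 32 h, and equal totals added Nrg1, higher, at 32 h. Leaving out each replicate gave 5515 to 6441 genes and 3 to 4 members differing among the times, 3651 to 5123 genes at 32 h, 4 to 6 calls at matched hours, 2 to 3 with a drift and 0 with a rhythm. Leaving out replicates turned the sign of Nrg1 at 24 h (-0.150 to 0.198; -0.010 without replicate 1 of 0 h), at 28 h (-0.014 to 0.095) and at 32 h against 8 h (-0.042 to 0.045; -0.019 without replicate 1 of 32 h). It turned that of Egfr at 16 h (-0.058 to 0.470), 20 h (-0.047 to 0.433), 32 h (-0.0015 to 0.360) and 28 h against 4 h (-0.029 to 0.581). Times not said otherwise are against 0 h, and values are log2 changes of which none passed. The cause was not tested. Where a replicate was left out, the lone library of that time was assumed to vary like the other times. The replicate block changed no other member call than those given. With 2 libraries per time and at most 29 reads of Egfr or 10 of Areg in a library, small changes of these genes were not detectable at this depth.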

Other observations

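The ratio of Ereg to Hbegf normalized reads was 1.33 and 1.31 in the 2 libraries of 0 h, 1.34 and 1.59 at 4 h, 1.27 and 1.504 at 8 h, 1.40 and 1.65 at 12 h, 1.62 and 1.72 at 16 h, 1.80 and 1.63 at 20 h, 2.23 and 1.69 at 24 h, 1.93 and 1.89 at 28 h, and 1.73 and 2.06 at 32 h. It is given as values without a test.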
